A study of Mus musculus with 10 samples.

Results

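The 10 genes described here encode enzymes and 1 helper protein that turn arachidonic acid into prostaglandins, thromboxane and leukotrienes, or that clear prostaglandins. They were taken by name from the 56748 genes of a mouse count table (Ptgs1, Ptgs2, Hpgds, Hpgd, Ptges, Tbxas1, Alox5, Alox5ap, Ltc4s and Lta4h), and each name had 1 row. RNA-seq libraries from poly-A selected RNA were made from 5 sorts of CD11b-positive brain cells, labelled microglia, with 400000 cells in each, and from 5 samples of hemi brains (bulk brain). The mice were young C57BL/6 males, with no treatment named. The labels give no separate animal for each sample, so that the p-values below speak of the spread among these libraries. Library totals ran from 25087489 to 28514509 counts in microglia and from 25845049 to 34709215 in bulk brain. The sort took every CD11b-positive cell, and bulk brain holds microglia too, so that the comparison sets an enriched cell type against a tissue that contains it. In bulk brain, fewer cells of a type and less RNA per cell cannot be told apart.

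Arachidonic acid is freed from membrane lipids by phospholipases. The cyclooxygenases COX-1 (Ptgs1) and COX-2 (Ptgs2) convert it to the endoperoxide PGH2, from which terminal synthases make prostaglandin D2, prostaglandin E2, thromboxane or prostacyclin, while 5-lipoxygenase, with its activating protein FLAP, starts the separate leukotriene branch. Microglia, the resident macrophages of the brain, are known for COX-1 and hematopoietic prostaglandin D synthase, and COX-2 in healthy forebrain is known mainly from excitatory neurons.

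All 24 microglia marker genes were higher in the sorted cells (median log2 difference 6.90, edgeR quasi-likelihood test). The neuron list summed to 3.82 to 6.21 CPM (counts per library, scaled to a common total with TMM) in microglia and 4787 to 5602 CPM in bulk brain. Endothelial genes were less depleted, with sums of 41.0 to 71.4 CPM in microglia, against 213 to 268 CPM in bulk brain. Of these 7 genes, 6 were lower and 1 did not pass, and Kdr stood at 14.4 CPM in microglia, against 17.9 CPM in bulk brain. The part of endothelial cells in the members' values was not tested. Markers of other blood cells that make eicosanoids were at 0 for some genes and higher in the sorted cells for others. Of 7 mast cell genes, 5 (Cpa3, Cma1, Mcpt4, Fcer1a and Ms4a2) had 0 counts in all microglia libraries and the list summed to 0.465 to 1.23 CPM there, against 3.42 to 5.74 CPM in bulk brain. Hdc, which neurons of the hypothalamus also express, held most of both sums (0.898 CPM in microglia, against 3.67 CPM in bulk brain), and Fcer1a had 0 counts in bulk brain too. Of the platelet genes, Ppbp, Gp1bb and Gp6 had 0 counts in microglia, Itga2b stood at 0.677 ± 0.295 CPM in microglia, against 2.62 ± 0.900 CPM in bulk brain, and Gp9 at 18.3 ± 1.75 CPM in microglia, against 0.108 ± 0.135 CPM in bulk brain (SD, n = 5 each). Ppbp and Gp6 had 0 counts in bulk brain too, and Gp1bb had 2 there, so their zeros tell little about platelets. The 10 neutrophil genes summed to 7.06 to 17.3 CPM in microglia, against 0.413 to 1.33 CPM in bulk brain, and 6 monocyte genes to 24.1 to 35.3 CPM, against 0.173 to 0.767 CPM, with Ccr2 at 25.6 CPM in microglia. All tested genes of both lists were higher in microglia (5 neutrophil and 2 monocyte genes), and their part in the members' values was not tested. All 12 genes of border-associated macrophages, which carry CD11b, were higher in microglia, with sums of 2097 to 2338 CPM against 28.8 to 29.8 CPM, of which Stab1 held 1623 CPM and Mrc1 282 CPM. No other gene of that list was above 82.9 CPM in microglia (F13a1), so the sum is mostly that of Stab1. The part of these border macrophages in the values below was not tested.

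Nearly the whole route to prostaglandin D2, thromboxane and leukotriene C4 was far higher in sorted microglia than in bulk brain, while the inducible synthase of prostaglandin E2 was almost missing from them. All 10 genes passed the low-count filter and all passed the test, 9 higher and 1 lower in microglia (edgeR quasi-likelihood test, adjusted p under 0.05 over 18969 genes). Over all genes tested, 37.2% were higher and 43.9% lower, so 81.0% were called in 1 direction or the other, and being called is by itself no mark of these genes. Their sizes are: Ptgs1, Hpgds, Hpgd, Tbxas1, Alox5, Alox5ap and Ltc4s stood 66.4-fold to 189-fold higher in microglia, Ptgs2 2.82-fold and Lta4h 1.65-fold higher, and Ptges lower. The median log2 difference of the 10 genes was 6.15, against -0.14 for all genes tested. No member's microglia libraries overlapped with its bulk brain libraries. The share of all genes tested without such overlap was not computed, so the lack of overlap is no mark of these genes either.

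**Figure D1:**
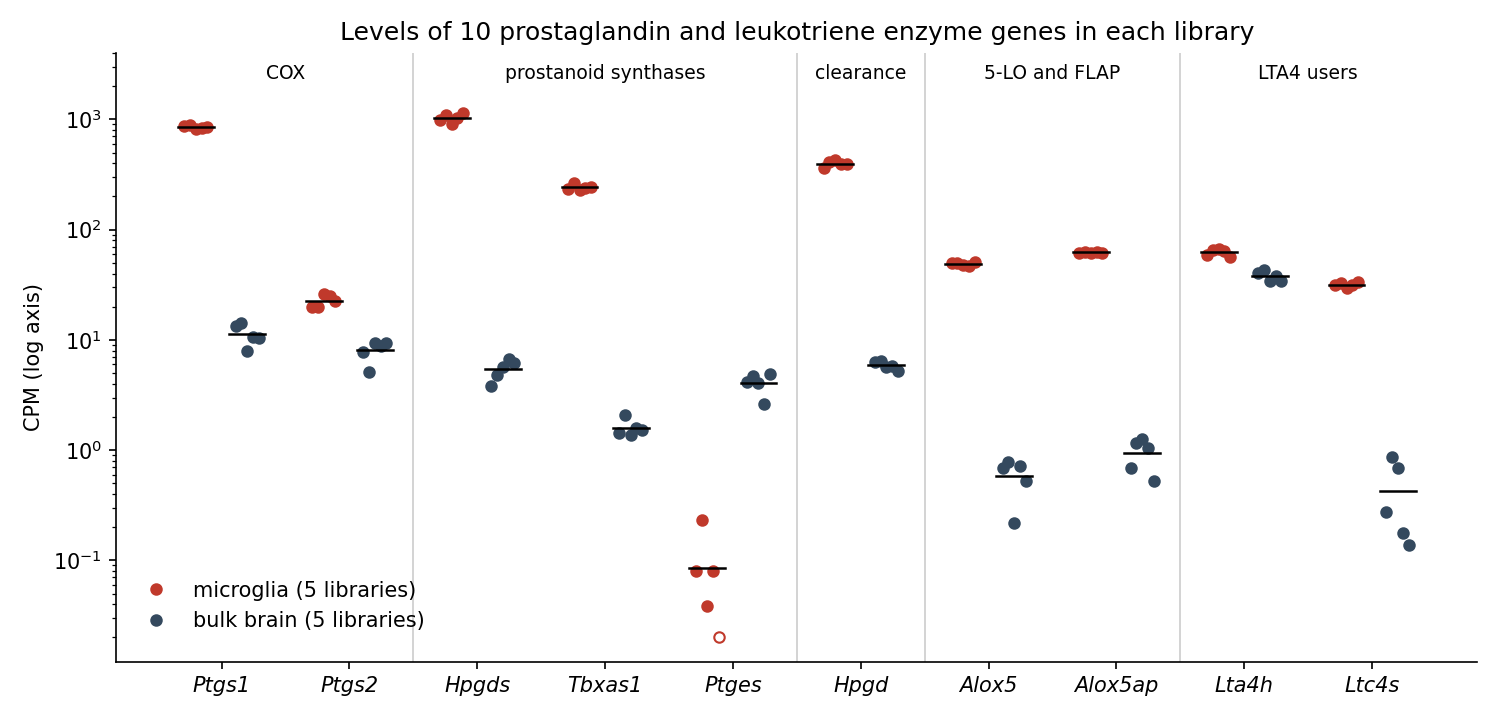
Level of each gene in each library, in CPM on a log axis, with microglia left of bulk brain for each gene, 1 point per library and a line at the mean (n = 5 each). The open point at the lower edge is the microglia library with 0 counts of Ptges. Each gene except Ptges has its microglia points above its bulk brain points, and Ptgs2 and Lta4h have the narrowest gaps.

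Of the cyclooxygenases, COX-1 was the abundant form in microglia. Ptgs1 (ENSMUSG00000047250, chromosome 2, 36120438 to 36142284, plus strand, GRCm39) stood at 877, 886, 815, 830 and 861 CPM in microglia replicates 1 to 5, and at 13.3, 14.2, 8.01, 10.6 and 10.4 CPM in bulk brain replicates 1 to 5. The groups were far apart, and bulk brain replicates 1 and 2 were its highest. The log2 difference was 6.24 ± 0.17 (SE, edgeR adjusted p = 3.7e-11). Ptgs2 (ENSMUSG00000032487, chromosome 1, 149975782 to 149983978, plus strand), the inducible cyclooxygenase and an early response gene, stood at 19.8, 19.7, 26.1, 24.99 and 22.7 CPM in microglia, and at 7.69, 5.14, 9.32, 8.76 and 9.33 CPM in bulk brain. Its groups did not overlap either, but the lowest microglia library was only about 10 CPM above the highest bulk brain library, and the log2 difference was 1.49 ± 0.18 (SE, edgeR adjusted p = 9.1e-06).

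To set genes beside each other, levels were divided by the gene length given in the table. That length need not be the length of the transcripts expressed, so orders and shares per kb depend on it. Ptgs1 reached 220 ± 7.82 CPM per kb in microglia (SD, n = 5), above 99.3% of the genes tested, and 2.91 ± 0.641 CPM per kb in bulk brain. Ptgs2 reached 4.95 ± 0.637 CPM per kb in microglia and 1.76 ± 0.384 CPM per kb in bulk brain. Ptgs2 thus made up 2.21% ± 0.355 of the summed cyclooxygenase level per kb in microglia, against 38.1% ± 10.1 in bulk brain (SD, n = 5 each). Its share ran from 1.85% to 2.64% over microglia libraries and from 23.5% to 49.7% over bulk brain libraries. Genes of the immediate early and dissociation response, a class to which Ptgs2 also belongs, were all 15 of 15 higher in microglia, with a summed level of 23881 to 28801 CPM against 342 to 540 CPM. In microglia replicates 1 to 5 that list summed to 25977, 28801, 24377, 24027 and 23881 CPM. Ptgs2 stood at 19.8, 19.7, 26.1, 24.99 and 22.7 CPM in the same libraries. These libraries all came from sorted cells, so their spread cannot show the part of the response in the difference from bulk brain. The part of that response in the level of Ptgs2 was not tested.

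Hpgds, the hematopoietic prostaglandin D synthase, was the most abundant of the 10 genes in CPM and had the largest fold. It (ENSMUSG00000029919, chromosome 6, 65094277 to 65121892, minus strand) stood at 983, 1087, 917, 1029 and 1133 CPM in microglia, and at 3.83, 4.79, 5.68, 6.77 and 6.17 CPM in bulk brain. Every microglia library was more than 100 times above every bulk brain library, and in bulk brain replicates 1 and 2 were the lowest, the reverse of Ptgs1. The log2 difference was 7.56 ± 0.19 (SE, edgeR adjusted p = 1.8e-11), and 7.21 ± 0.10 against bulk brain replicates 3 to 5 alone. Tbxas1, the thromboxane A synthase (ENSMUSG00000029925, chromosome 6, 38852338 to 39061519, plus strand), stood at 233, 263, 229, 238 and 246 CPM in microglia, and at 1.42, 2.08, 1.38, 1.57 and 1.51 CPM in bulk brain. It was highest in replicate 2 of both groups, and its log2 difference was 7.24 ± 0.14 (SE, edgeR adjusted p = 5.4e-12).

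Ptges, the inducible microsomal prostaglandin E synthase, went the other way. It (ENSMUSG00000050737, chromosome 2, 30779483 to 30819875, minus strand) had 2, 6, 1, 2 and 0 counts in microglia replicates 1 to 5, and 152, 163, 112, 88 and 178 counts in bulk brain replicates 1 to 5. Bulk brain held 4.09 ± 0.897 CPM (SD, n = 5), while the 11 counts summed over microglia gave 0.0873 CPM, with an exact Poisson interval of 0.0436 to 0.156 CPM at 95% that covers counting error only. The mean level was 47.5-fold higher in bulk brain (-5.49 ± 0.51 on the log2 scale, SE; edgeR adjusted p = 9.5e-07), and 82.8-fold without microglia replicate 2, which held 6 of the 11 counts.

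Set against each other per kb, the 3 terminal synthases divided differently in the sorted cells and in the tissue. Hpgds made up 85.7% ± 0.649 of their sum in microglia, against 41.2% ± 9.06 in bulk brain (SD, n = 5 each). Tbxas1 made up 14.2% ± 0.644 in microglia and 8.53% ± 1.42 in bulk brain, and Ptges 0.0116% ± 0.0112 in microglia and 50.3% ± 9.003 in bulk brain. The spread between microglia libraries was narrow, from 85.0% to 86.7% for Hpgds, while in bulk brain Hpgds ran from 32.9% to 55.7%. By CPM, Ptges held 36.8% and Tbxas1 14.4% of the sum in bulk brain and Hpgds 48.8%, so that the order of Hpgds and Ptges in bulk brain depends on the division by length. These shares leave out the other synthases, which are given further on, and they describe mRNA and not enzyme activity.

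**Figure D2:**
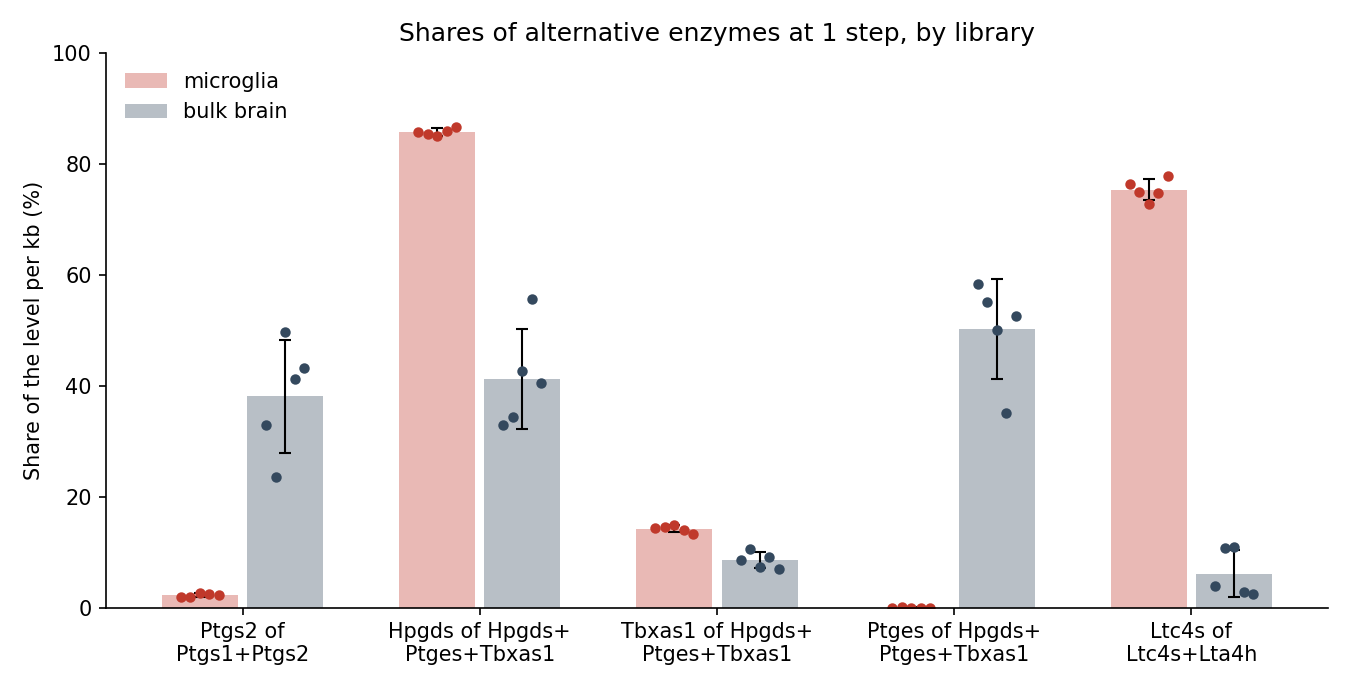
Share of each enzyme gene in the summed level per kb of the alternatives at its step, in percent, with microglia left of bulk brain. Bars are means, error bars SD (n = 5 each), and points single libraries. In microglia Hpgds holds 85.7% of the sum with Tbxas1 and Ptges and Ltc4s holds 75.4% of the sum with Lta4h, against 41.2% and 6.15% in bulk brain.

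Hpgd, the 15-hydroxyprostaglandin dehydrogenase that starts the breakdown of prostaglandins, was also a gene of the sorted cells. It (ENSMUSG00000031613, chromosome 8, 56747620 to 56774078, plus strand) stood at 365, 409, 426, 390 and 397 CPM in microglia, and at 6.32, 6.38, 5.68, 5.82 and 5.26 CPM in bulk brain. Both groups were tight and wide apart, with a log2 difference of 6.07 ± 0.11 (SE, edgeR adjusted p = 2.8e-12). Per kb it stood at 236 ± 13.6 CPM per kb in microglia, the highest mean of the 10 genes, although its lowest library (217 CPM per kb) lay below the highest of Ptgs1 (228 CPM per kb). In microglia the mean levels per kb then followed the order Hpgd, Ptgs1, Hpgds, Alox5ap, Ltc4s, Tbxas1, Alox5, Lta4h, Ptgs2 and Ptges, and no neighbours in that order after Hpgd and Ptgs1 overlapped over libraries. In bulk brain the highest mean was that of Lta4h, at 6.20 ± 0.646 CPM per kb, followed by Hpgd at 3.50 ± 0.278 CPM per kb.

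In the leukotriene branch, 5-lipoxygenase and its activating protein were both higher in microglia. Alox5 (ENSMUSG00000025701, chromosome 6, 116387038 to 116438139, minus strand), which oxygenates arachidonic acid to leukotriene A4, stood at 49.6, 49.8, 47.5, 46.6 and 51.1 CPM in microglia, and at 0.685, 0.779, 0.218, 0.713 and 0.523 CPM in bulk brain (6.36 ± 0.25 on the log2 scale, SE; edgeR adjusted p = 4.6e-10). Alox5ap (ENSMUSG00000060063, chromosome 5, 149201577 to 149224963, plus strand), which encodes FLAP, a membrane protein that presents arachidonic acid to the enzyme, stood at 62.0, 63.2, 60.9, 62.5 and 61.8 CPM in microglia, and at 0.685, 1.15, 1.27, 1.04 and 0.523 CPM in bulk brain (6.06 ± 0.22 SE, edgeR adjusted p = 3.1e-10). Both stayed at or below 1.27 CPM throughout bulk brain, where Alox5 rested on 6 to 27 counts a library. Per kb, Alox5 stood at 27.2% ± 1.04 of Alox5ap in microglia, against 24.4% ± 11.7 in bulk brain (SD, n = 5 each), and the libraries of the groups overlapped, with bulk brain running from 5.93% to 34.6%. By CPM, without division by gene length, it stood at 78.8% in microglia and 70.6% in bulk brain. The spread of Alox5ap between microglia libraries was small, a coefficient of variation of 1.35% where counting error alone gives 2.53%, and the median for genes at a like level was 6.02%.

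The 2 enzymes that use leukotriene A4 parted. Ltc4s, which joins it to glutathione to form leukotriene C4 (ENSMUSG00000020377, chromosome 11, 50127288 to 50129443, minus strand), stood at 31.5, 32.5, 29.4, 31.7 and 33.2 CPM in microglia, and at 0.274, 0.866, 0.691, 0.178 and 0.138 CPM in bulk brain (6.22 ± 0.41 on the log2 scale, SE; edgeR adjusted p = 4.3e-08). Its bulk brain values rested on 5 to 30 counts a library. Lta4h, which hydrolyses leukotriene A4 to leukotriene B4 and is also an aminopeptidase found in many cells (ENSMUSG00000015889, chromosome 10, 93289273 to 93320737, plus strand), stood at 58.4, 65.6, 66.3, 64.3 and 56.7 CPM in microglia, and at 40.2, 43.2, 34.1, 37.7 and 34.1 CPM in bulk brain. The groups did not overlap, but the log2 difference was only 0.72 ± 0.10 (SE, edgeR adjusted p = 3.3e-05), and 0.53 at the lowest over 21 alternatives. A test against a 2-fold change did not pass for Lta4h (adjusted p = 1). Ltc4s made up 75.4% ± 1.93 of the sum of both per kb in microglia, against 6.15% ± 4.31 in bulk brain (SD, n = 5 each). By CPM, without division by gene length, the share was 33.8% in microglia and 1.10% in bulk brain, since Lta4h is the longer gene.

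The bulk brain level was also taken as a percentage of the microglial level. The 24 microglia marker genes, which few other brain cells express, stood in bulk brain at 0.469% (Ptprc) to 2.26% (Sall1) of their microglial level, with a median of 0.837%. Hpgds at 0.529%, Tbxas1 at 0.660%, Alox5 at 1.19%, Ptgs1 at 1.32%, Ltc4s at 1.36%, Hpgd at 1.48% and Alox5ap at 1.51% all lay inside that range. Lower in the range than 23 of the 24 markers was Hpgds, while 3 markers lay above Alox5ap. Ptgs2 at 35.5% and Lta4h at 60.8% lay far above every marker, and Ptges was higher in bulk brain than in microglia. No test was made of these percentages, which take the RNA of the sorted cells to be like that of the same cells in tissue.

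**Figure D3:**
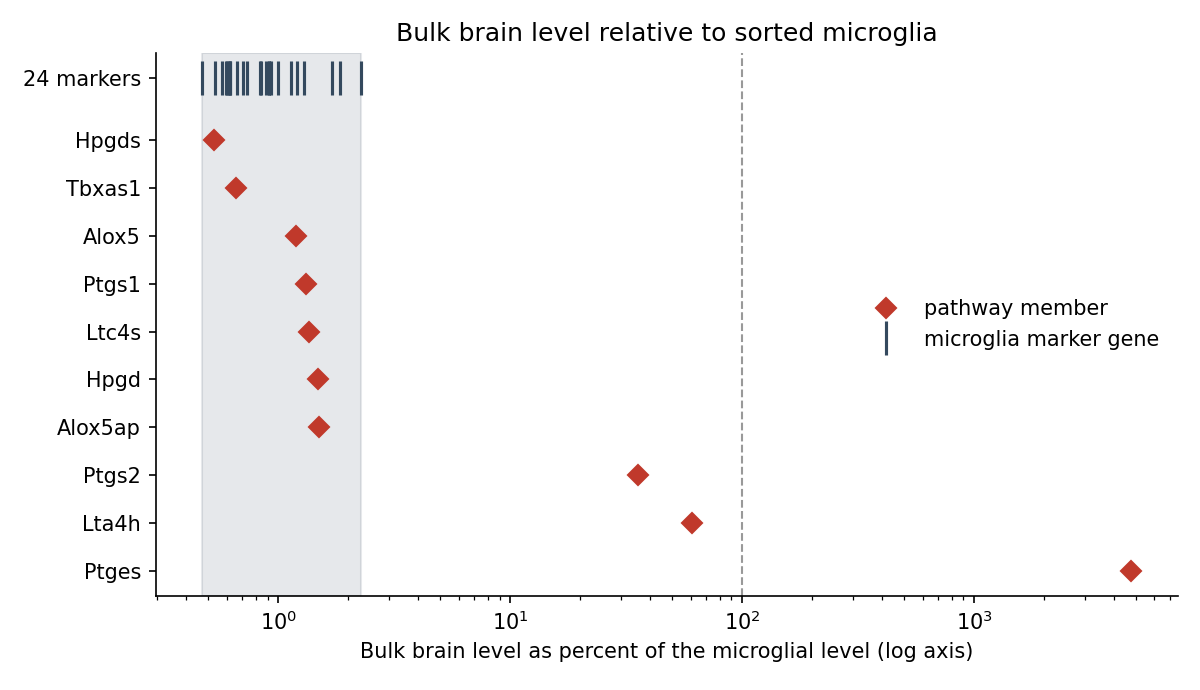
Mean bulk brain level as a percent of the mean microglial level, on a log axis, for the 10 genes (diamonds) and for 24 microglia marker genes (ticks, with their range shaded). The dashed line marks equal levels. The 7 genes from Hpgds to Alox5ap lie within the marker range of 0.469% to 2.26%, and Ptgs2, Lta4h and Ptges lie outside it.

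Earlier results of these data showed bulk brain replicates 1 and 2 apart from replicates 3 to 5, and members differed between them in both directions. Means for replicates 1 and 2 and for replicates 3 to 5 were 13.8 and 9.65 CPM for Ptgs1, 6.42 and 9.14 CPM for Ptgs2, 4.31 and 6.20 CPM for Hpgds, and 41.7 and 35.3 CPM for Lta4h. Against replicates 3 to 5 alone, where 37.9% of 20098 genes tested were higher and 47.4% lower, the same 9 members were higher and Ptges lower. The log2 difference of Ptgs2 was then 1.16 ± 0.13 and that of Lta4h 0.66 ± 0.07 (SE, edgeR adjusted p = 2.0e-06 and 1.9e-06).

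Some of the counts may be shared with genes that lie within or across the members, since no strand setting is given in the sources used here. Hpgd spans Gm45540, an unconfirmed transcript on the same strand with 9850 counts summed over microglia and 21 over bulk brain, against 50112 and 995 for Hpgd. Hpgds spans the pseudogene Gm17147 on the opposite strand (7984 and 49 counts, against 129597 and 914), and Ptgs1 spans Gm43621 (2905 and 12, against 107587 and 1932). Ltc4s overlaps the antisense RNA gene Gm26542 (829 and 26 counts, against 3987 and 70), and Alox5ap the antisense gene Gm19719 (1774 and 91, against 7823 and 154). The start of Hipk2, a kinase gene on the opposite strand with 9347 and 15941 counts, crosses the start of Tbxas1. All but Hipk2, and the pseudogene Gm13400 within Ptges with 0 counts in microglia and 7 in bulk brain, had more counts in microglia, as their hosts did.

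Promoters of 5 members are shown to let the windows be compared, since the prostanoid genes Hpgds, Ptgs1 and Tbxas1 are high in microglia while Ptgs2 is 2.82-fold higher and Ptges almost missing. The plan also named Alox5ap, which had no window, and Ltc4s, whose window is not printed. Ptges was not in the plan and was added with its values known. Windows from 250 bases before to 50 bases after the start of transcription were taken from RefSeq on GRCm38.p6, an earlier build than that of the counts, and 9 of the 10 members had one. They are printed 5′ to 3′ on the strand of the gene, with capitals for matches to the motifs searched on both strands. GAGGAA is the core bound by PU.1, a myeloid transcription factor, and by its relatives of the ETS family. TGACGT is part of the cyclic AMP response element. TGANTCA, with any base at N, is a loose form of the site of AP-1, the factor made of Fos and Jun proteins. The TATA box (TATAAA) places the start of transcription in some promoters. GC boxes (GGGCGG) and the NF-kappaB motif were searched as well.
Hpgds (chr6:65144681-65144980, minus strand): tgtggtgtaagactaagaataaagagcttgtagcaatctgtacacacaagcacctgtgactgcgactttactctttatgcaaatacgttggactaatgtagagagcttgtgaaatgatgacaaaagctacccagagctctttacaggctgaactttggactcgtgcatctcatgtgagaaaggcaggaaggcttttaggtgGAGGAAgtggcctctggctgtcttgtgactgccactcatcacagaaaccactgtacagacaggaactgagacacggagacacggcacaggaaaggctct
Ptgs1 (chr2:36230176-36230475, plus strand): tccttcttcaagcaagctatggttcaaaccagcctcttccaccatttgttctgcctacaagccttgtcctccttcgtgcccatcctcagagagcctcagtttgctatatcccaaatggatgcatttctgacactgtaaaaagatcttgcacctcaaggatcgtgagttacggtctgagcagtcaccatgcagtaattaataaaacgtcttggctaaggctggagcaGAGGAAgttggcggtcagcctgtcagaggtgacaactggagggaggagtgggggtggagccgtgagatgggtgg
Tbxas1 (chr6:38918736-38919035, plus strand): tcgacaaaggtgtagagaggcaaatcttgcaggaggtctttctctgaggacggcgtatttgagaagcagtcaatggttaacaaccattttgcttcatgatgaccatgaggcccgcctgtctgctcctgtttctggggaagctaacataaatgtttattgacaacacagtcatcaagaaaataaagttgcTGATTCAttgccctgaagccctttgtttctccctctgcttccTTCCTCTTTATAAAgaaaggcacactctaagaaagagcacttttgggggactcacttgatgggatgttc
Ptgs2 (chr1:150099781-150100080, plus strand): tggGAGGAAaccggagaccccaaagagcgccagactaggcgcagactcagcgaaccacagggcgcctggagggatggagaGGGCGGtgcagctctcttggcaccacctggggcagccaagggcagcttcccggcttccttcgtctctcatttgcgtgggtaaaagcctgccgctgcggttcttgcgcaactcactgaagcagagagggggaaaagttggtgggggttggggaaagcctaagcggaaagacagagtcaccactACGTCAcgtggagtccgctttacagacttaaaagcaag
Ptges (chr2:30903248-30903547, minus strand): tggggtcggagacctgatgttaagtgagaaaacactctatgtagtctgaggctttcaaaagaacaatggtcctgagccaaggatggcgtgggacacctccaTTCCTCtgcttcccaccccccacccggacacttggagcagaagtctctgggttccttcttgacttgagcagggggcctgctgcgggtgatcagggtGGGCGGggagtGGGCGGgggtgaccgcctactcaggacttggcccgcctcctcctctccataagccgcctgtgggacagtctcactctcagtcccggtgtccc

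GAGGAA or its reverse complement stood in all 9 windows, the 1 of Ptges included, against 28.3% of the 32851 promoter windows of the reference. Its first base lay at -24 in Ptgs1, -49 in Hpgds and -19 in Tbxas1, and at -247 in Ptgs2 and -149 in Ptges, counted from the start site. In the windows not printed it lay at -230 in Hpgd, -136 in Alox5, -126 in Lta4h and 17 in Ltc4s. Hpgd and Alox5 were far higher in microglia too, so these positions did not sort the members by level. The match in Tbxas1 was followed directly by overlapping matches to the TATA box on both strands (at -13 and -11). Among the 9 windows a TATA box stood also in Hpgd, at 5, and 13.6% of all windows held one. Ptgs2 alone of the 9 windows held the cyclic AMP element, as ACGTCA at 13, which 7.51% of all windows held. A GC box stood in Ptgs2, Hpgd, Ptges (at 2 places) and Alox5, and in 35.7% of all windows. A match to the loose AP-1 form stood only in Tbxas1 among the 9, as TGATTCA (7.81% of all windows held the loose form). No window of the 9 held the NF-kappaB motif (0.411% of all). A match is a run of letters and not a shown binding site. The windows of Tbxas1 and Ptges seem to lie inside the counted genes and not at their outer starts. This was read from the shift between builds at other members on the same chromosomes.

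The rest of the pathway did not follow the members. Of 66 other genes of arachidonic acid release, prostanoid and leukotriene synthesis, clearance and reception, 51 passed the low-count filter, and 19 were higher, 26 lower and 6 without a call in microglia (edgeR quasi-likelihood test, adjusted p under 0.05). Their median log2 difference was -0.42, against -0.14 for all genes tested, of which 37.2% were higher and 43.9% lower.

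Of the 15 tested genes of arachidonate supply, 6 were higher, 8 lower and 1 without a call (median -0.30). The cytosolic phospholipase A2 gene Pla2g4a, whose product frees arachidonic acid upon calcium signals, stood at 85.5 ± 4.54 CPM in microglia, against 5.81 ± 1.18 CPM in bulk brain (SD, n = 5 each), a log2 difference of 3.88 ± 0.16 (SE, edgeR adjusted p = 6.2e-10). The secreted phospholipase gene Pla2g2d was higher too, at 3.90 ± 0.970 CPM against 0.224 ± 0.161 CPM. The monoglyceride lipase gene Mgll, whose product frees arachidonic acid from the endocannabinoid 2-arachidonoylglycerol in brain, was lower in microglia, at 76.9 ± 5.98 CPM against 131 ± 8.66 CPM, a difference of less than 2-fold (log2 difference -0.77). Pla2g4e and Pla2g3 had the largest falls of that list, at 0.050 ± 0.112 CPM against 6.85 ± 2.02 CPM and at 0.0577 ± 0.109 CPM against 5.48 ± 1.55 CPM.

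Of 8 other prostanoid synthase genes, 1 was higher, 5 lower and 2 did not pass (median -1.26). The lipocalin-type prostaglandin D synthase gene Ptgds, which oligodendrocytes and the meninges express, fell most. It stood at 2.90, 3.45, 3.24, 2.63 and 2.38 CPM in microglia, and at 1074, 1304, 632, 599 and 612 CPM in bulk brain (-8.17 ± 0.31 on the log2 scale, SE; edgeR adjusted p = 4.3e-10). Bulk brain replicates 1 and 2 were about double the others. The prostaglandin D synthase mRNAs thus changed places, with Hpgds at 160 ± 13.2 CPM per kb and Ptgds at 1.77 ± 0.265 CPM per kb in microglia, and Hpgds at 0.848 ± 0.180 CPM per kb and Ptgds at 512 ± 197 CPM per kb in bulk brain. Oligodendrocyte markers summed to 92.2 to 137 CPM in microglia, against 3386 to 4466 CPM in bulk brain, and meningeal fibroblast markers to 0.756 to 2.87 CPM in microglia and 78.8 to 92.0 CPM in bulk brain, whose part in the difference of Ptgds was not tested.

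The other prostaglandin E synthases were present in microglia. Ptges3, the cytosolic form, also known as the HSP90 co-chaperone p23, stood at 83.5 ± 11.3 CPM in microglia, against 89.3 ± 27.1 CPM in bulk brain (-0.10 ± 0.19 on the log2 scale, SE; edgeR adjusted p = 0.65, with a sign that turned against bulk brain replicates 3 to 5 alone, at 0.09). Ptges2 stood at 11.4 ± 0.882 CPM in microglia, against 31.0 ± 11.5 CPM in bulk brain (log2 difference -1.45). The prostacyclin synthase gene Ptgis was lower, at 0.0793 ± 0.101 CPM against 3.43 ± 0.854 CPM, and Akr1b3, an aldose reductase also described as a prostaglandin F synthase, was higher, at 62.5 ± 3.46 CPM against 36.7 ± 10.2 CPM.

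Of 8 tested genes among the other lipoxygenases and leukotriene enzymes, 1 was higher, 6 lower and 1 without a call (median -3.71), and 6 more did not pass the filter. Ggt5, a gamma-glutamyl transferase that converts leukotriene C4 to leukotriene D4, was the gene that was higher, at 89.2 ± 3.33 CPM against 3.10 ± 0.835 CPM (4.84 ± 0.18 on the log2 scale, SE; edgeR adjusted p = 3.4e-10). The 12-lipoxygenase gene Alox12 stood at 0.722 ± 0.584 CPM in microglia, against 0.886 ± 0.157 CPM in bulk brain and did not pass the threshold, and Alox15 (0.283 ± 0.328 CPM and 0.0690 ± 0.0661 CPM) and the dipeptidase gene Dpep2 (0.0638 ± 0.0225 CPM and 0.0119 ± 0.0266 CPM) did not pass the filter. Alox12b, an epidermal lipoxygenase gene, had no count in any microglia library, at least 90.7-fold below its 2.15 ± 0.275 CPM in bulk brain, taking 3 counts over the group as the limit. Alox8 had 2 counts over the microglia libraries, and its level in bulk brain was 297-fold higher (95% counting interval 82.0 to 2457).

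All 10 clearance and transport genes were tested, and 6 were higher and 4 lower (median 0.72). Ptgr1, a reductase that inactivates leukotriene B4 and prostaglandin metabolites, stood at 12.8 ± 1.81 CPM in microglia, against 1.65 ± 0.516 CPM in bulk brain (log2 difference 2.95). The prostanoid exporter gene Abcc4 stood at 19.7 ± 1.63 CPM against 11.04 ± 1.66 CPM. Cyp4f18, a leukotriene B4 hydroxylase gene of myeloid cells, stood at 2.55 ± 0.925 CPM against 0.227 ± 0.204 CPM. Of its relatives, Cyp4f13, which falls outside the rule for named genes and was added after its values were seen, was higher as well, at 84.1 ± 9.91 CPM in microglia, against 12.2 ± 1.88 CPM in bulk brain. Lower in microglia were Cyp4f15 at 0.0393 ± 0.0558 CPM against 11.9 ± 1.68 CPM and Cyp4f14 at 1 count over the microglia libraries, for a bulk brain level 1183-fold higher (95% counting interval 212 to 46748).

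Of 10 tested receptor genes, 5 were higher, 3 lower and 2 without a call (median 1.25). Cysltr1, the receptor for leukotrienes D4 and C4, stood at 128, 137, 151, 145 and 131 CPM in microglia, and at 0.356, 0.462, 0.655, 0.861 and 0.716 CPM in bulk brain (7.82 ± 0.21 on the log2 scale, SE; edgeR adjusted p = 3.2e-11). Its log2 difference was above that of every member and every other pathway gene tested, and its groups lay far apart. Among prostaglandin E2 receptors, Ptger1 stood at 5.80 ± 0.538 CPM against 0.535 ± 0.263 CPM and Ptger4 at 7.14 ± 0.702 CPM against 1.60 ± 0.430 CPM, both higher in microglia. Ptger3 (7.10 ± 1.44 CPM and 3.78 ± 1.96 CPM, edgeR adjusted p = 0.062) and Ptger2 (0.168 ± 0.286 CPM and 0.533 ± 0.203 CPM, edgeR adjusted p = 0.078) did not pass, and without microglia replicate 4 Ptger2 was lower (log2 difference -3.59, edgeR adjusted p = 3.5e-04). The leukotriene B4 receptor gene Ltb4r1 was higher at a low level, 0.907 ± 0.197 CPM against 0.230 ± 0.214 CPM. The thromboxane receptor gene Tbxa2r was lower, at 0.0554 ± 0.104 CPM against 0.992 ± 0.344 CPM, although Tbxas1 was high. Ptgdr and Ptgfr, genes of a prostaglandin D2 receptor and of the F2 alpha receptor, had 0 counts in microglia, at least 46.8-fold and 80.0-fold lower than the 1.10 ± 0.232 CPM and 1.90 ± 0.309 CPM of bulk brain. Ptgdr2, the other prostaglandin D2 receptor gene, falls outside the rule for named genes. It did not pass the filter, with 1 count over microglia and 8 over bulk brain.

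**Figure D4:**
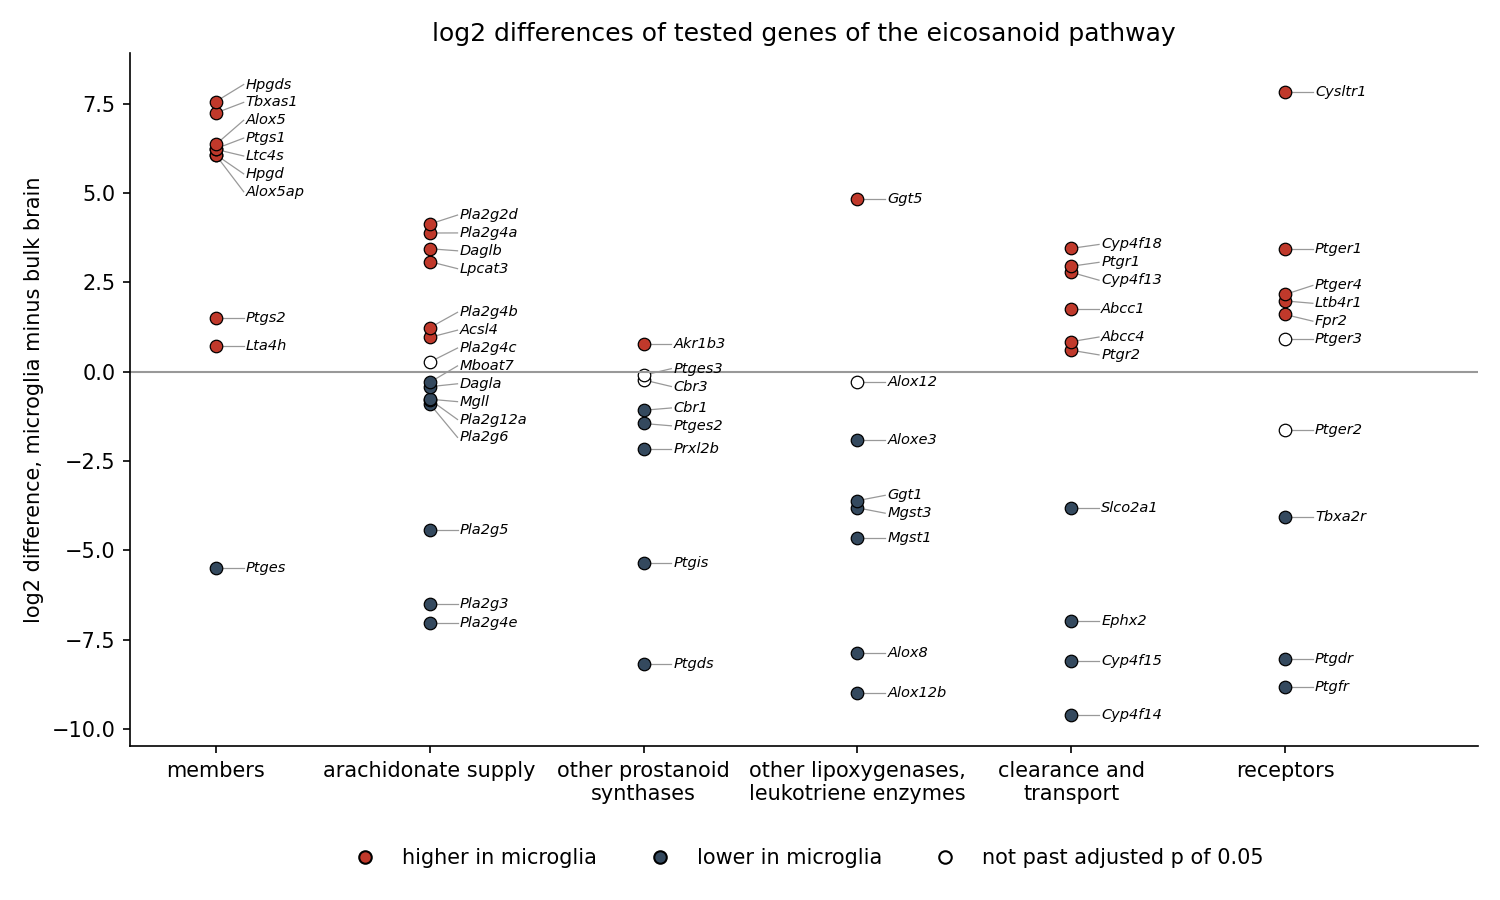
log2 difference (microglia minus bulk brain, edgeR) of each tested gene, in columns for the 10 members and for 5 lists of other pathway genes, with positive values higher in microglia. Filled points passed an adjusted p of 0.05 and open points did not; fitted values of genes with 0 to 2 counts in microglia (Alox12b, Ptgdr, Ptgfr, Alox8, Cyp4f14) depend on the model's prior count. The members stand mostly above 6, while the other lists spread on both sides of 0.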

How the data were processed

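The values are raw counts of reads for 56748 genes in 10 libraries, deposited by the authors without normalization, with gene names, GRCm39 coordinates and gene lengths per the file headers. Per the submitters' processing notes, CASAVA, HISAT2 2.2.1, featureCounts 2.0 and GRCm39 were used, in roles not stated, and per the labels' protocols poly-T beads and random hexamer primers were used. Strand setting, handling of multiply mapped reads and annotation release: not given in the sources used here. All value columns were matched to samples by the column name in the labels (0 were left over).

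Counts were filtered with edgeR's filterByExpr by group (18969 genes kept), scaled by TMM and tested with the quasi-likelihood test of edgeR 4.0.16 under R 4.3.3 (limma 3.58.1 for voom), on all 10 libraries without covariates, with Benjamini-Hochberg adjustment over all genes tested. An SE is the log2 difference divided by the square root of F. CPM use TMM-scaled totals, and levels per kb divide CPM by the deposited gene length. A count of 0 allows up to 3 counts, or 0.0821 to 0.125 CPM by library. Shares and percentages carry no test. No pair of replicates matched within sampling noise (lowest chi-square per degree of freedom 5.17), and none was merged. Levels and plots came from Python 3.11.15 (pandas 2.3.3, numpy 2.4.6, matplotlib 3.10.9, SciPy 1.17.1). The test was also run on simulated counts in which few genes changed. That run does not cover data such as these, where most genes were called.

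The members and lists were chosen with earlier results of these data known. Besides the members, 16 pathway genes were named whatever their values, with the 2 largest rises and falls past the threshold in each of 5 pathway lists at 1 CPM or more in the higher group. Dpep2 had more than 1 row, and the row with most counts was used. Protein sequences were not used here, and 1 marker gene is not reported here. Alternatives were other scalings and filters, DESeq2 1.42.0, limma-voom, a 2-fold threshold, a replicate block, thinning and left-out libraries.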

Additional observations from a re-analysis of the deposited data

Results flagged for a closer look

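In groups of 5 libraries, 10 of 94 sets of values had 1 library whose gap to its nearest neighbour was over 0.71 of the group's range. Chance flags about 1 in 20 groups, and most flags were genes near 0. In bulk brain, Tbxas1 stood at 2.08 CPM in replicate 2, against 1.38 to 1.57 CPM in the others. Replicate 1 of bulk brain was high for Alox12b, at 2.63 CPM against 1.95 to 2.15 CPM, and for Ptgdr, at 1.51 CPM against 0.921 to 1.07 CPM. Dpep2 had counts in bulk brain replicate 4 alone, at 0.0594 CPM.

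In microglia, Ptger2 stood at 0.676 CPM in replicate 4 and at most at 0.0834 CPM in the others. Replicate 5 was high for Pla2g4e at 0.25 CPM and for Alox8 at 0.0834 CPM, with 0 counts in the others, and for Pla2g3 at 0.25 CPM, against at most 0.0386 CPM. Tbxa2r stood at 0.238 CPM in replicate 1, against at most 0.0388 CPM, and the single count of Cyp4f14 in replicate 4 was 0.0398 CPM.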

How the results depend on the processing

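The 9 members higher and the 1 lower in microglia kept these counts under each of the 21 alternatives, except against a 2-fold change, where Lta4h did not pass (adjusted p = 1), and 209 of the 210 member fits kept direction and call. The same threshold left 12 of 19 other pathway genes higher, and of the genes named, Mgll, Abcc4, Ltb4r1 and Akr1b3 did not pass it. Ptger3 passed with the upper quartile (log2 difference 0.99), limma-voom (1.18) and the replicate block (1.12), and Ptger2 with limma-voom (-2.58, adjusted p = 0.008). Ptges3 turned to 0.09 (not past the threshold) against bulk brain replicates 3 to 5 alone; the cause was not tested. With CPM in place of levels per kb, the share of Ptgs2 was 2.60% in microglia, of Hpgds 81.0% in microglia, of Tbxas1 19.0% in microglia and 14.4% in bulk brain, of Ptges 36.8% in bulk brain, and of Ltc4s 33.8% in microglia and 1.10% in bulk brain, while Alox5 stood at 78.8% of Alox5ap in microglia and 70.6% in bulk brain, since gene lengths differ. With library size alone, the bulk brain level was 1.69% of the microglial level for Hpgd and 69.1% for Lta4h. For Ptges it ranged from 3800% to 8280% over left-out libraries, highest without microglia replicate 2.

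Over all genes tested, the log2 differences had a median of -0.14, and of -0.31 with median-of-ratios size factors, -0.33 with library size alone and -0.07 with the upper quartile. Nothing in the labels says that the shared replicate numbers pair the samples. Correlations of same-numbered deviations ran from -0.045 to 0.019. Sorted cells and whole tissue may vary for different reasons, so these values cannot show whether samples were paired. With the replicate block 9 members were higher and 1 lower, and the block changed no member call. Bulk brain values of Alox5, Alox5ap and Ltc4s rest on under 41 counts a library, which limits their precision.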
